A study of Mus musculus with 4 samples.

Results

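Side-by-side peaks are stretches of RNA listed as bound by SRSF1 or SRSF2, with no overlapping peak of the other protein but with one a short way along the same RNA. They come from 2 CLIP-seq peak lists of MEFs, which are fibroblasts cultured from mouse embryos. A peak qualified when it lay in a unit that the authors called genic, was not mitochondrial, shared no base with a peak of the other protein on its strand, and had a midpoint of the other protein within 100 nt on that strand. Of 46898 genic SRSF1 peaks 7679 qualified, and of 51298 genic SRSF2 peaks 8906. Together these are 16585 of the 107319 peaks in both lists. The peaks were chosen by the measured positions of both proteins, so their number and the upper limit of their spacing describe the choice and are no finding.

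SRSF1 (SF2/ASF) and SRSF2 (SC35) are SR proteins, which bind RNA through RNA recognition motifs and contact the splicing machinery through a domain rich in arginine and serine. On exons they are best known for promoting the use of nearby splice sites, and neighbouring binding sites in 1 exon can be used together or in competition. SRSF1 is known to favour purine-rich RNA, whereas SRSF2 recognises both G-rich and C-rich elements. Some matrix and cytoskeletal transcripts carry exons that depend on SR proteins.

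CLIP-seq crosslinks protein to RNA with ultraviolet light, precipitates the protein and sequences the RNA that stays attached. The SRSF1 library came from the SRSF1 tet-repressible MEF line and the SRSF2 library from the SRSF2 tet-repressible line, both grown without tetracycline and precipitated with an antibody against the HA tag. Each protein was therefore measured as a tagged form in its own line, and protein and line cannot be told apart. SRSF1 libraries of siControl and siSRSF2 cells in the same series were not analysed here. With 1 library per protein there is no replicate error and no test between the proteins. Ranges in brackets after a share are 95% binomial confidence limits (exact, Clopper-Pearson); they reflect counting error alone, and neighbouring peaks are not independent. Read depth is not known from the lists.

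A named gene here is one whose host unit carries a RefSeq accession that matched a gene symbol, which holds for 17058 of the 98196 genic peaks. Among the fibroblast markers, 2 of 11 had a peak under their own name, Col1a1 and Postn, and of the 6 epithelial markers only Krt19 did. None of the 4 endothelial, 4 immune, 4 skeletal muscle and 4 neuronal markers had one. Most peaks lie in numbered clusters without a gene name, so these counts cannot show which markers were unbound. No peak sequence is shown, because the coordinates are on mm9 and the genome at hand is of another build.

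Most genic peaks were either on a peak of the other protein or far from one, and the side-by-side peaks were the smallest class. They made up 16.4% of genic SRSF1 peaks (16.0 to 16.7) and 17.4% of genic SRSF2 peaks (17.0 to 17.7), or 16.9% of both. Overlapped peaks made up 38.7% of the SRSF1 and 35.6% of the SRSF2 peaks. The remaining 44.9% and 47.0% had no midpoint of the other protein within 100 nt and are called apart. The nearest peak of the other protein lay in the same host unit for every one of the 16585 side-by-side peaks.

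Many side-by-side peaks stood next to a site that both proteins occupied. For 3358 SRSF1 peaks (43.7%, 42.6 to 44.8) the nearest SRSF2 peak was itself overlapped by another SRSF1 peak. For 4360 SRSF2 peaks (48.96%, 47.9 to 50) the nearest SRSF1 peak was overlapped by another SRSF2 peak. The rest faced a peak of the other protein that no listed peak overlapped. For comparison, 35.6% of all genic SRSF2 peaks and 38.7% of all genic SRSF1 peaks were overlapped. In host units of 50 or more peaks these overlapped shares were 48.9% and 53.6%. The share of side-by-side peaks next to a shared peak was not taken by unit size. No conclusion is therefore drawn on whether a shared neighbour is particular to them. A midpoint of the other protein lay within 100 nt on both sides for 12.4% of the SRSF1 and 10.6% of the SRSF2 peaks, so flanking from 1 side was the usual arrangement. The neighbouring peak scored higher where it was shared, as overlapped peaks did in each list as a whole. SRSF2 peaks nearest to a side-by-side SRSF1 peak had a median score of 10 when overlapped and 8 when not, and SRSF1 peaks nearest to a side-by-side SRSF2 peak had 9 and 7.

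In 3729 cases an SRSF1 and an SRSF2 peak were each the other's nearest peak and both were side-by-side peaks. These are called reciprocal pairs, and they hold 48.6% of the side-by-side SRSF1 peaks and 41.9% of the SRSF2 peaks. Midpoints of a pair were 38.5 nt apart in the median, with quartiles of 25.5 and 57 nt. The largest share, 37.3%, lay over 20 to 40 nt apart, followed by 25.6% over 40 to 60 nt, and only 8.39% lay over 80 nt apart. Between nearest ends the median gap was 20 nt, with quartiles of 7 and 39 nt. In 1095 pairs (29.4%, 27.9 to 30.9) the gap was at most 9 nt, and in 132 (3.54%) the peaks abutted with no base between them.

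The spacing between the proteins resembled the spacing of each protein's peaks with one another. Neighbouring SRSF1 peaks with midpoints within 100 nt, 9872 pairs, had a median midpoint distance of 40.5 nt and a median gap of 18 nt. For 12526 neighbouring SRSF2 pairs these were 40 and 18 nt. The shortest gaps were where the kinds of pair differed most. A gap of 1 to 9 nt held 25.8% of the pairs between proteins (24.4 to 27.3), against 36.0% for SRSF1 with SRSF1 (35.0 to 36.9) and 36.1% for SRSF2 with SRSF2 (35.3 to 37.0). A gap of exactly 1 nt held 3.92%, 9.08% and 9.76%. No peak of either list abutted one of its own list. How touching peaks within a list were handled is not stated, so this absence is not read as spacing. Pairs within a list are next neighbours, whether or not the other protein overlapped them, so the kinds of pair were not built alike.

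**Figure D1:**
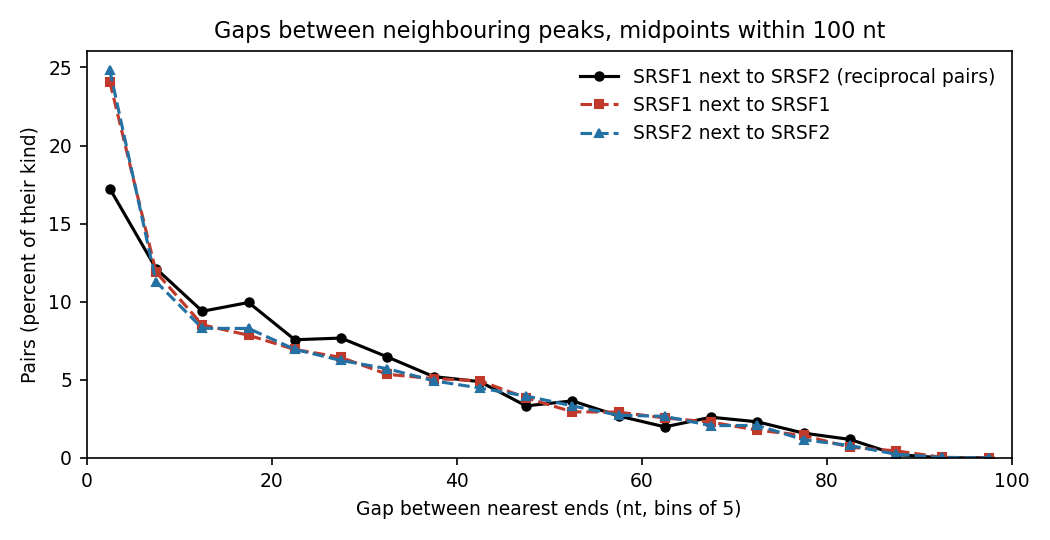
Gap between nearest ends (x axis, nt, bins of 5) against the percent of pairs of each kind (y axis), for the 3729 reciprocal SRSF1 and SRSF2 pairs (black circles), 9872 neighbouring SRSF1 pairs (red squares) and 12526 neighbouring SRSF2 pairs (blue triangles), all with midpoints within 100 nt. The curves lie close together except in the shortest bin, which holds 17.2% of the pairs between proteins, 24.1% of the SRSF1 pairs and 24.8% of the SRSF2 pairs.

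Along the RNA either protein could come first, with a small excess of SRSF1 on the upstream (5′) side. SRSF1 was upstream in 1961 of 3729 reciprocal pairs (52.6%, 51.0 to 54.2). The share was the same on each strand of the genome, with 990 of 1883 pairs on the plus strand (52.6%) and 971 of 1846 on the minus strand (52.6%). By chromosome it ranged from 44.8% to 66.3% with a median of 52.0%, and it was above 50% on 16 of 20. By gap it was 55.1% at 1 to 9 nt (51.9 to 58.3), 49.4% at 10 to 19 nt (45.7 to 53.1), 52.1% at 20 to 39 nt (49 to 55.3) and 53.0% at 40 nt or more (49.7 to 56.3), with no steady trend.

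Overlapping pairs, which are outside the side-by-side set, had a like excess. SRSF1 had the more upstream midpoint in 52.6% of the 18025 overlapping pairs with unequal midpoints, with a mean offset of 0.274 nt. Next to a site that both proteins occupied, no such excess was seen: the side-by-side peak was upstream of its neighbour for 49.9% of SRSF1 peaks (48.2 to 51.6) and for 51.0% of SRSF2 peaks (49.5 to 52.5). The difference between these shares was not tested.

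**Figure D2:**
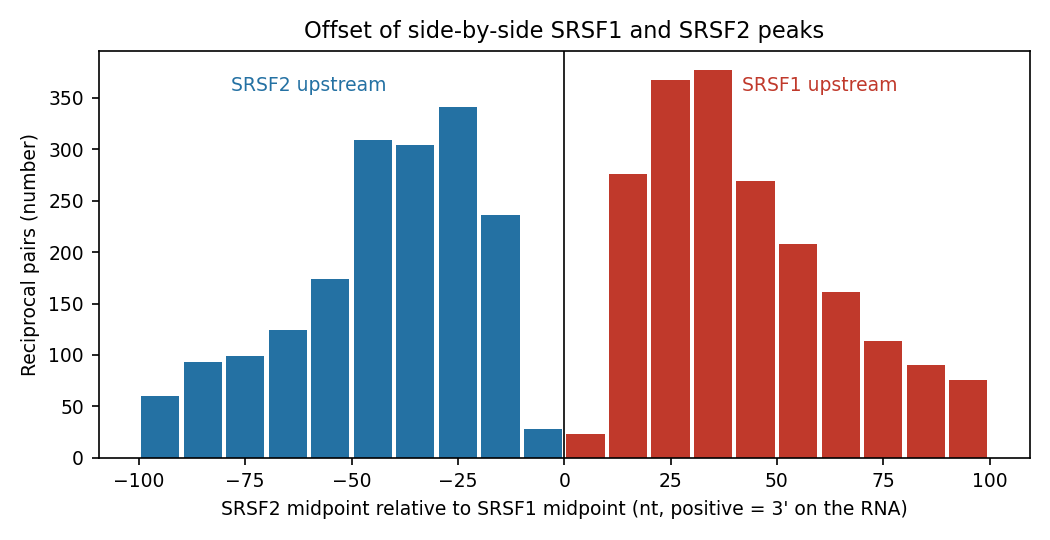
Position of the SRSF2 midpoint relative to the SRSF1 midpoint (x axis, nt, positive towards the 3′ end of the RNA) against the number of reciprocal pairs (y axis, bins of 10 nt). Red bars hold the 1961 pairs with SRSF1 upstream and blue bars those with SRSF2 upstream; the dip at the centre follows from leaving out overlapping peaks.

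Side-by-side peaks were narrower than overlapped peaks. Overlap depends on width, so width and the choice of members are not independent. Their median width was 17.0 nt in both lists, against 22.0 nt for overlapped peaks, and 18.0 nt (SRSF1) and 17.0 nt (SRSF2) for peaks apart. Peaks of at most 10 nt made up 26.2% of the side-by-side SRSF1 peaks, 11.0% of the overlapped and 20.9% of those apart. For SRSF2 these shares were 27.5%, 12.1% and 23.7%. The very short peaks were thus most frequent among side-by-side peaks, while at least 30 nt was reached by 6.91% of them for SRSF1 and 7.67% for SRSF2. Widths within a pair were unrelated, with a Spearman rho of 0.0322 across the 3729 pairs.

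**Figure D3:**
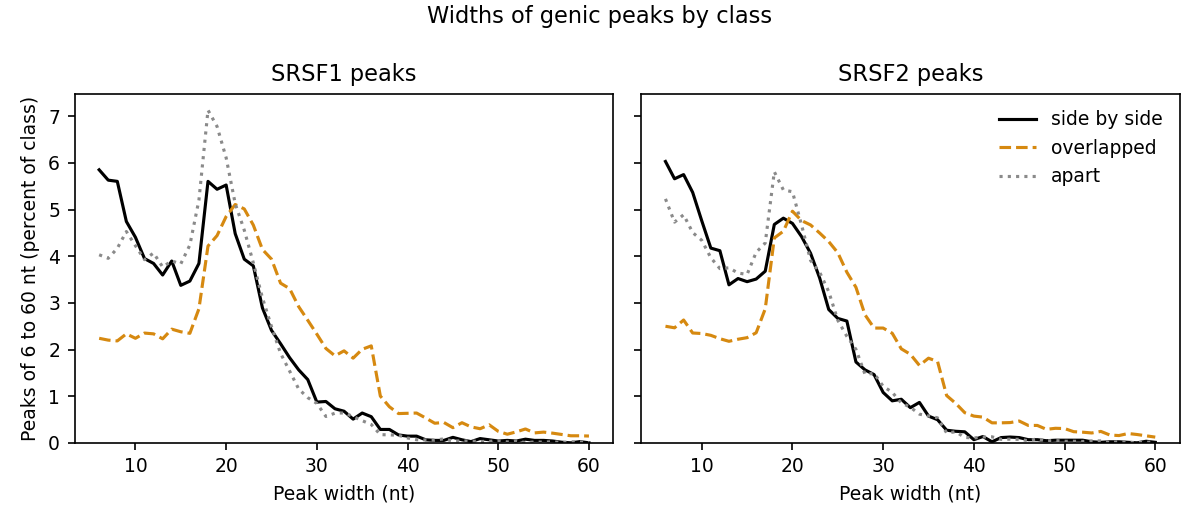
Peak width (x axis, nt) against the percent of peaks of that width within each class (y axis, peaks of 6 to 60 nt), for SRSF1 (left) and SRSF2 (right). Side-by-side peaks (black) are most frequent at 6 nt, which is the lowest width in the lists, so narrower peaks could not be seen. They have a further maximum near 18 nt, where peaks apart (grey, dotted) are most frequent. Overlapped peaks (orange, dashed) are most frequent at 20 to 21 nt.

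The score that the authors gave each peak, whose meaning is not stated, placed side-by-side peaks between the other classes. In the SRSF1 list the median was 8.0, against 10.0 for overlapped peaks and 7.0 for those apart. In the SRSF2 list the medians were 9.0, 11.0 and 8.0. Scores above the 90th percentile of the list were held by 4.62% of side-by-side SRSF1 peaks, 16.2% of overlapped and 2.92% of those apart, and by 5.75%, 18.7% and 3.71% for SRSF2. Ranked within the host unit, for units with at least 10 peaks, side-by-side peaks no longer stood above those apart. Their median percentiles were 42.2 and 43.3 for SRSF1 and 42.9 and 44.4 for SRSF2, with overlapped peaks at 66.2 and 66.7.

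Scores of the peaks in a pair went together across host units but not within them. Across all 3729 pairs the Spearman rho was 0.593, and it was 0.612 across 19028 overlapping pairs. After the mean log2 score of each host unit was taken out, for units with at least 3 pairs, rho was -0.0532 over 1272 side-by-side pairs and 0.227 over 15785 overlapping pairs. Without that step the same pairs gave 0.535 and 0.593. Peaks of a list share library and host unit, so these values describe the lists and carry no test.

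In host units with many peaks a larger share of the peaks was side by side. In units with 1 to 4 peaks of both proteins, 4.94% of SRSF1 and 5.27% of SRSF2 peaks were side by side. The shares rose through 11.6% and 11.9% (5 to 9 peaks), 15.5% and 15.6% (10 to 19) and 18.3% and 19.4% (20 to 49) to 21.3% and 22.8% in units of 50 or more. Overlapped peaks rose alongside, from 14.3% to 53.6% for SRSF1 and from 14.6% to 48.9% for SRSF2. Crowding moved with membership as well, and its part in these shares was not tested. The median was 3.0 other peaks of either protein within 500 nt of side-by-side and of overlapped peaks, and 0.0 for peaks apart. Part of this follows from the definition, because peaks apart are those without a midpoint of the other protein within 100 nt.

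**Figure D4:**
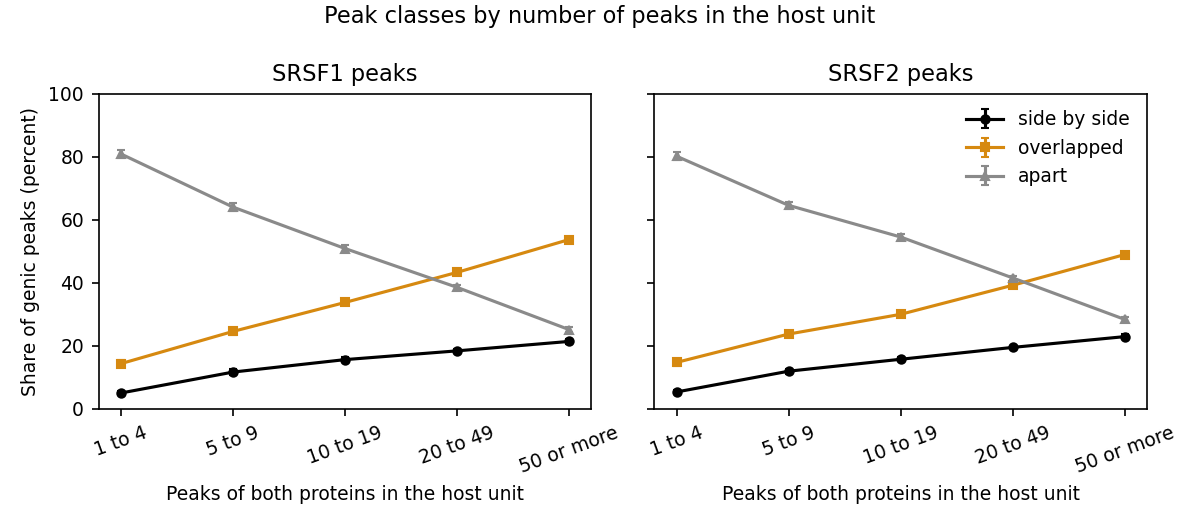
Number of peaks of both proteins in the host unit (x axis, 5 classes) against the share of genic peaks in each class (y axis, percent), for SRSF1 (left) and SRSF2 (right); error bars are exact 95% binomial intervals. Side-by-side peaks (black) rise from 4.94% and 5.27% to 21.3% and 22.8%, overlapped peaks (orange) rise more steeply, and peaks apart (grey) fall.

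Joined into runs, in which each midpoint lies within 100 nt of the next, the side-by-side peaks formed 9553 short stretches with a median of 3.0 peaks and 83.0 nt. Of these runs, 66.3% also held an overlapped peak. The simplest runs were 1 peak of each protein, in the order SRSF1 then SRSF2 in 1167 and SRSF2 then SRSF1 in 1071. In runs of 1 side-by-side peak and a shared site, the SRSF1 peak came upstream of that site in 880 and downstream in 891, and the SRSF2 peak upstream in 1095 and downstream in 1090. Runs of 3 peaks without a shared site were few in any order. The order SRSF1, SRSF2, SRSF1 was found in 79 and SRSF2, SRSF1, SRSF2 in 121, while the orders with 2 neighbouring peaks of 1 protein were found in 105 to 178 runs each. Runs of exactly 4 alternating peaks numbered 7 (SRSF1 first) and 6 (SRSF2 first). At least 5 side-by-side peaks were found in 99 runs (1.04%).

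Among named genes the run with most side-by-side peaks was in Zfhx4 (chromosome 3, plus strand, 5241717 to 5242143), a gene for a homeodomain protein with many zinc fingers. It opened with a shared site, SRSF1 at 5241717 to 5241744 and SRSF2 at 5241722 to 5241738, and went on with 3 SRSF1 and 7 SRSF2 side-by-side peaks. The whole run, shared site included, spans 427 nt, and SRSF2 has more peaks along it than SRSF1. The other leading runs lay in clusters without a gene name. One on chromosome 6 (minus strand, 119774464 to 119775144) had 18 peaks in 681 nt, of which 6 SRSF1 and 4 SRSF2 peaks were side by side. Runs on chromosome 10 (plus strand, 74707832 to 74708289), chromosome 19 (plus strand, 9077696 to 9078374) and chromosome 11 (plus strand, 77505846 to 77506601) had 8 each, among 20, 17 and 13 peaks.

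**Figure D5:**
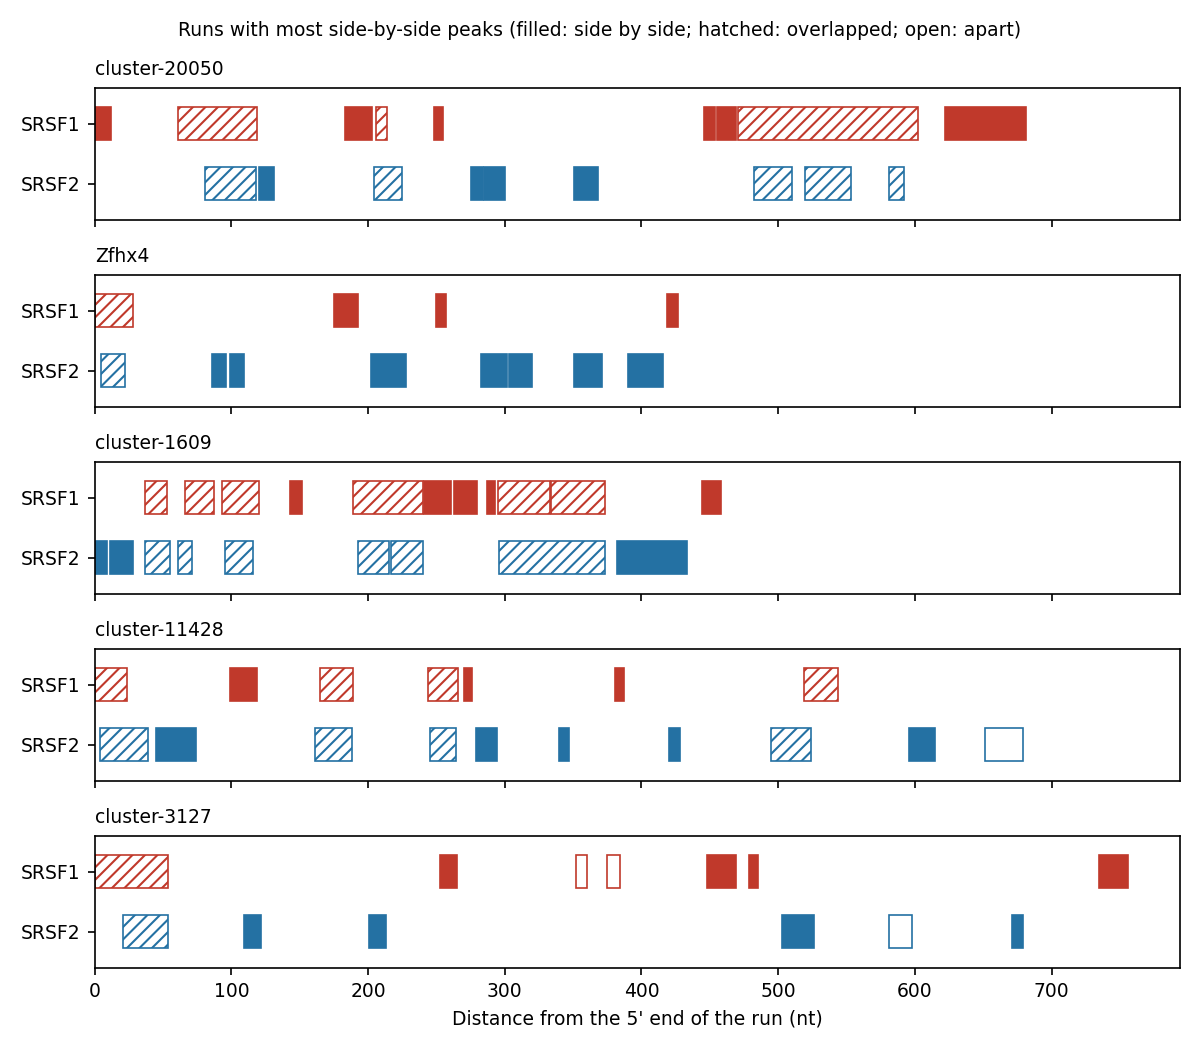
The 5 runs with most side-by-side peaks, each drawn from its 5′ end (x axis, nt), with SRSF1 peaks in the upper row and SRSF2 peaks in the lower row of each panel; panels carry the gene symbol or the authors' cluster name. Filled boxes are side-by-side peaks, hatched boxes overlapped peaks and open boxes peaks apart; in Zfhx4 7 filled SRSF2 boxes stand among 3 filled SRSF1 boxes.

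Of 2155 named genes with a genic peak, 721 had a side-by-side peak, 520 had them for both proteins and 442 held a reciprocal pair. Among the 528 named genes with at least 10 peaks, the median share of side-by-side peaks was 17.6%, with quartiles of 10.0% and 26.9%, near the 16.9% over all genic peaks. The genes with most side-by-side peaks were large and densely bound. Dync1h1 encodes the motor subunit of cytoplasmic dynein, and its peaks span 111839714 to 111905034 on the plus strand of chromosome 12. It had 17 SRSF1 and 40 SRSF2 side-by-side peaks among 192 peaks (29.7%, 23.3 to 36.7). They were spread over 33 runs with at most 4 in any run. Zfhx4 had 21 and 32 among 144 (36.8%, 28.9 to 45.2), in 16 runs. These genes were named for their counts, so their shares are a description. All units with 50 or more peaks, these genes included, had 21.3% (SRSF1) and 22.8% (SRSF2).

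The next genes by count had a lower number and a like share. Lamc1, the laminin gamma 1 chain, had 10 SRSF1 and 16 SRSF2 side-by-side peaks among 82 (31.7%). Med13, a subunit of the Mediator kinase module, had 15 and 10 among 84 (29.8%), and Smg6, an endonuclease of nonsense-mediated decay, 9 and 16 among 65 (38.5%). Igf2r, the receptor for mannose-6-phosphate and IGF2, had 9 and 14 among 83 (27.7%). Cers5, a ceramide synthase, had 9 and 10 among 66 (28.8%), and the Golgi glycoprotein gene Glg1 8 and 11 among 53 (35.8%). The transcription factor gene Ubp1 had 7 and 11 among 53 (34.0%), and Flna, the actin crosslinker filamin A, 8 and 10 among 96 (18.8%, 11.5 to 28.0). Of these 10 genes, all but Flna had a share above the 22.8% of SRSF2 peaks in units this large. The genes were chosen for their counts, which favours high shares, so their intervals are no test of this. Most peaks of Flna were overlapped, 31 of 45 for SRSF1 and 28 of 51 for SRSF2.

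Order within single genes rested on few pairs. SRSF1 was upstream in 6 of 7 reciprocal pairs of Med13 and in 3 of 3 of Glg1. In Dync1h1 it was upstream in 4 of 7, in Smg6 in 4 of 6, in Lamc1 in 3 of 5 and in Ubp1 in 3 of 4. In Zfhx4 SRSF1 was upstream in 4 of 10 pairs, in Igf2r and Cers5 in 1 of 4 each, and in Flna in 1 of 3. None of these genes had more than 10 pairs, and none of these counts was tested.

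The highest shares among these 528 genes belonged to genes with few peaks and had wide intervals. Rbm15, an RNA-binding protein of the m6A methylation complex (chromosome 3, minus strand, 107129120 to 107134812), had 7 side-by-side peaks of 11 (63.6%, 30.8 to 89.1). Hprt, the purine salvage enzyme (chromosome X, plus strand, 50352275 to 50374303), had 9 of 15 (60%, 32.3 to 83.7), and Usp5, a deubiquitinase, 8 of 14 (57.1%, 28.9 to 82.3). Sumf1, which activates sulfatases, had 6 of 11 (54.5%) and no overlapped peak of either protein. Ranbp1, a partner of the GTPase Ran, had 7 of 14 (50%), of which 5 were SRSF2 peaks. These are the extremes of 528 genes.

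The reciprocal pairs with the highest smaller score in named genes, taken as the best pair of each gene, included matrix, secretory and translation genes. In Pcolce, which enhances procollagen processing (chromosome 5, minus strand), an SRSF1 peak at 138050339 to 138050360 (score 23) lay 21 nt upstream of an SRSF2 peak at 138050309 to 138050317 (score 24). In Col1a1, whose product forms type I collagen (plus strand of chromosome 11), an SRSF2 peak of 9 nt at 94810741 to 94810749 abutted an SRSF1 peak of 20 nt at 94810750 to 94810769, both with a score of 22. Uap1l1 (chromosome 2, minus strand) had SRSF1 at 25219666 to 25219689 (score 24), 20 nt upstream of SRSF2 at 25219635 to 25219645 (score 21). These pairs are among the stronger peaks of their lists, above the 95th percentile by score in each list.

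The other pairs of this kind ranged from 1 to 16 nt apart. In Grina (chromosome 15, plus strand) SRSF2 at 76079217 to 76079225 (score 26) lay 4 nt upstream of SRSF1 at 76079230 to 76079237 (score 19). In Flna (chromosome X, minus strand) SRSF2 at 71488470 to 71488489 (score 22) lay 12 nt upstream of SRSF1 at 71488438 to 71488457 (score 19). Eif4g2, a translation initiation factor (chromosome 7, minus strand), had SRSF1 at 118221196 to 118221224 (score 21), 5 nt upstream of SRSF2 at 118221172 to 118221190 (score 18). Thus the order differed between genes, and the gap did too.

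Sqstm1, the autophagy receptor p62 (chromosome 11, minus strand), had SRSF1 at 50014266 to 50014291 (score 17), 10 nt upstream of SRSF2 at 50014227 to 50014255 (score 22), and SRSF1 was also upstream in its other pair. Hsp90ab1, a cytosolic chaperone (chromosome 17, minus strand), had SRSF2 at 45705415 to 45705424 (score 21) and SRSF1 at 45705405 to 45705413 (score 17), with 1 nt between them. In Ctsa, the lysosomal enzyme cathepsin A (chromosome 2, plus strand), SRSF2 at 164659822 to 164659843 (score 18) lay 4 nt upstream of SRSF1 at 164659848 to 164659869 (score 17). In Col6a1, a chain of type VI collagen (chromosome 10, minus strand), SRSF2 at 76187764 to 76187793 (score 16) lay 16 nt upstream of SRSF1 at 76187725 to 76187747 (score 18). Second pairs of Pcolce (scores 19 and 24) and Flna (18 and 20) also outranked the last of these by score and were left out by the limit of 1 pair per gene. SRSF2 was upstream in both of those and in 6 of the 10 listed.

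Outside named genes 1 pair stood far above the rest by score. It lay on chromosome 19 (minus strand), with SRSF1 at 5800568 to 5800580 (score 193) and SRSF2 at 5800505 to 5800520 (score 226), 47 nt apart. The next, on chromosome 9 (plus strand), had SRSF2 at 41389820 to 41389841 (score 44), 55 nt upstream of SRSF1 at 41389897 to 41389918 (score 39). Pairs on chromosome 15 (minus strand, SRSF1 at 79363552 to 79363571), chromosome 17 (plus strand, 23945457 to 23945471) and chromosome 1 (minus strand, 180260917 to 180260938) had SRSF1 scores of 27, 27 and 25 and SRSF2 scores of 32, 34 and 25. In the last 4 of these 5 pairs SRSF2 was upstream. No transcript was assigned to these positions.

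Of the unnamed units, 2 had more side-by-side peaks than any named gene. A unit on chromosome 1 (plus strand, 34025655 to 34364737) held 32 SRSF1 and 69 SRSF2 side-by-side peaks among 348 (29.0%). One on chromosome 12 (plus strand, 76979327 to 77211808) had 41 and 38 among 272. Units on chromosome 17 (plus strand, 74928055 to 75101748), chromosome 1 (minus strand, 71632464 to 71699714) and chromosome 10 (minus strand, 12122694 to 12588836) had 54, 49 and 46 side-by-side peaks. Their shares ran from 22.1% to 29.0%, beside 21.3% and 22.8% for the SRSF1 and SRSF2 peaks of all units with 50 or more peaks.

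Across 6 gene lists the share of side-by-side peaks, pooled over the peaks of a list, ran from 10.2% to 21.0%, beside 16.9% of all genic peaks. The median share per gene gave another order, with 6.06% for matrix genes, 7.14% for core spliceosome genes, 9.09% for hnRNP, TIA and ELAV genes, 15.8% for translation factors and chaperones, 16.5% for cytoskeleton genes and 22.5% for SR protein genes. Of the SR protein genes, 4 of 13 were named and bound, all 4 with a side-by-side peak, 13 of 62 peaks in all (21.0%, 11.7 to 33.2). Srsf3 had 6 of 19 and Tra2b 4 of 13, each with 1 reciprocal pair, and Srsf9 had 1 of 7. Srsf1 itself had 2 of 23 (8.70%), both SRSF2 peaks and neither in a reciprocal pair, while 7 of its 11 SRSF1 peaks were overlapped. Srsf2 has no value under its own name.

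The genes of hnRNP, TIA and ELAV proteins, RNA-binding regulators of splicing and stability, had the lowest pooled share of these lists, though not the lowest median per gene. Of 28 genes 7 were named and bound and 5 had a side-by-side peak, 13 of 127 peaks (10.2%, 5.56 to 16.9), with no reciprocal pair. Hnrnpd had 4 of 44, with 36 of its peaks overlapped (17 SRSF1 and 19 SRSF2), Hnrnpul2 3 of 22, Tial1 3 of 30 and Elavl1 2 of 13. The core spliceosome genes, 6 of 30 named and bound, had 7 of 39 (17.9%, 7.54 to 33.5), with Prpf19 at 3 of 7, Snrpd3 at 3 of 10 and Snrpd1 at 1 of 7.

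Matrix, cytoskeleton and translation genes had more peaks than the other lists, and the matrix and translation lists had the narrowest intervals. Matrix genes, 7 of 27, had 54 of 292 peaks side by side (18.5%, 14.2 to 23.4), with nearly all of these in 3 genes, Lamc1 at 26 of 82, Col1a1 at 15 of 107, Col6a1 at 11 of 48, and the remainder in Thbs1 at 2 of 33. Actin cytoskeleton and myosin genes, 8 of 28, had 36 of 185 (19.5%, 14.0 to 25.9), with Flna at 18 of 96, Actn4 at 10 of 37, Actb at 4 of 21 and Actg1 at 2 of 4. Translation factors and chaperones, 10 of 22, had 66 of 319 (20.7%, 16.4 to 25.6), with Eif4g2 at 15 of 37, Eif5b at 11 of 31, Hsp90b1 at 10 of 69 and Eif3b at 7 of 27. SRSF1 was upstream in 4 of 10 pairs of the matrix list, 3 of 8 of the cytoskeleton list and 5 of 14 of the translation list. These are lower shares than over all pairs, on few pairs and without a test.

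At the edges of the definition the peaks inside and outside were alike. The 320 SRSF1 peaks with their neighbour over 90 to 100 nt away had a median width of 18.0 nt and a median score of 8.0, and the 315 at 100 to 110 nt had 17.0 nt and 8.0. For SRSF2, 393 and 368 peaks had 18.0 nt and a score of 9.0 on both sides of the limit. At the other edge, the 132 abutting pairs had median widths of 14 nt (SRSF1) and 15 nt (SRSF2), and the 307 overlapping pairs that shared only 1 or 2 nt had 15 nt for each protein. The lists also skip some peak numbers. Of 6724 side-by-side SRSF1 peaks with SRSF2 peaks of the same unit on both sides, 30.7% (29.6 to 31.9) lay between SRSF2 peaks whose numbers were not consecutive, and 27.6% of 7555 SRSF2 peaks (26.6 to 28.6) lay between such SRSF1 peaks. For peaks apart these shares were higher, 34.3% for SRSF1 and 31.5% for SRSF2. Their nearest flanking peak lies farther off by definition, which can leave more room for a skipped number, so no conclusion is drawn from the difference.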

How the data were processed

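For 1 SRSF1 and 1 SRSF2 library the authors deposited a peak list each, with a score per peak. This score, from 4 upwards in whole numbers, has no stated meaning. The submitters' processing notes name mm9, and coordinates are printed 1-based. The aligner, peak caller and threshold were not given in the sources used here. Peaks named nongenic and mitochondrial peaks were left out. Overlap meant 1 shared nt on the same strand, and distances are between midpoints. Overlaps and members were checked against bedtools 2.31.1 and the steps were tested on simulated data. Symbols came from a RefSeq table of GRCm38.p6, for names only, and matched 2155 of 2169 accessions. The planned motif comparison needs an mm9 genome and was not run.

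Members and lists were chosen with earlier results of these data known. Named are the 10 genes with most members, the 5 with the highest share among those with at least 10 peaks, the 10 pairs with the highest smaller score, at most 1 per gene (the 1 use of scores across lists, with the pair correlations), the 5 unnamed units and 5 unnamed pairs (at most 1 per unit) by the same rules, up to 4 genes per list, the 5 fullest runs, and Srsf1 and Srsf2. Alternatives changed the distance, overlap, width, merging, score, unit, list length and chromosome choices. The analysis used Python 3.11.15, pandas 2.3.3 and scipy 1.17.1.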

Additional observations from a re-analysis of the deposited data

How the results depend on the processing

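The share of reciprocal pairs with SRSF1 upstream stayed above 50% under each alternative, from 51.7% to 54.1%, but its interval reached 49.8% when peaks closer than 10 nt counted as overlapped. The other values moved with the definition. Shares of side-by-side SRSF1 and SRSF2 peaks were 10.3% and 10.7% within 50 nt, 20.5% and 21.8% within 200 nt, 17.6% and 18.7% by the gap between ends, 12.5% and 13.4% with peaks closer than 10 nt as overlapped, 6.25% and 6.91% at a fixed peak width of 50 nt, 14.3% and 14.996% with close peaks of 1 protein merged, and 12.8% and 14.3% above the median score. In the same order the median midpoint distance was 30, 44.5, 40.5, 47.5, 67, 40.5 and 42.5 nt. The shares next to a shared peak were 47.7% and 53.6% with peaks closer than 10 nt as overlapped, 54.6% and 61.4% at the fixed width, 36.3% and 41.6% merged, and 49.4% and 55.5% above the median score. For SRSF1 this share was 42.5% within 200 nt, and for SRSF2 it was 44.8% with the longer list thinned to 46898 peaks. Above the median score the widths were 20 nt for each protein, the scores 11 and 12, and 260 named genes had a member, by construction fewer. Elsewhere the cause was not tested.

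Of 66 alternative values, 30 stayed within the interval of the reported value (for gene numbers, within 1.5 times), and 36 did not. Leaving out 1 chromosome gave side-by-side shares of 16.3% to 16.5% and 17.2% to 17.5%, shares next to a shared peak of 43.4% to 43.9% and 48.7% to 49.4%, distances of 38.25 to 39 nt and SRSF1 upstream in 52.1% to 53.0%. No paired analysis was possible because each protein has 1 library. Peak numbers carry no depth, so an absent peak does not show absent binding.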

Other observations

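By median position and by the share in the last 10%, side-by-side peaks were placed along their host units nearer to overlapped peaks than to peaks apart. In units with at least 10 peaks, with position counted from the first (0) to the last (1) listed peak along the RNA, the median position was 0.542 for side-by-side SRSF1 peaks, 0.505 for overlapped and 0.645 for those apart. For SRSF2 it was 0.507, 0.503 and 0.596. The last 10% of the unit held 15.4% of side-by-side SRSF1 peaks (14.6 to 16.3) and 15.6% of side-by-side SRSF2 peaks (14.8 to 16.5), against 13.8% and 13.9% of overlapped peaks and 22.1% and 22.9% of peaks apart. The first 10% held 15.03% of the side-by-side SRSF1 peaks (14.2 to 15.9), 16.8% of overlapped and 11.7% of those apart. For SRSF2 it held 18.2% of the side-by-side peaks (17.4 to 19.1), above both the 16.6% of overlapped and the 16.8% of those apart. Exons could not be assigned, so these positions are along the span of peaks and not along a transcript.

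Some well-bound genes had no side-by-side peak at all, 55 of the 528 named genes with at least 10 peaks. The 3 with most peaks were named after their values were seen. They are Ano6, a lipid scramblase, with 17 SRSF1 and 10 SRSF2 peaks, Pnpt1, a mitochondrial RNA exonuclease, with 17 and 7, and Atf6, a sensor of unfolded proteins in the endoplasmic reticulum, with 3 and 16. With 0 of 27 side-by-side peaks the upper bound of the interval for Ano6 is 12.8%. The gene was chosen for having none, so this bound is no test.

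By chromosome the share of side-by-side peaks ran from 12.4% to 18.1% of genic SRSF1 peaks and from 13.6% to 19.2% of SRSF2 peaks, over 20 chromosomes. Chromosome 7 had the lowest share for both proteins. Side-by-side peaks also had neighbours of their own protein: an own midpoint lay within 100 nt of 60.6% of them for SRSF1 and 67.4% for SRSF2, against 44.8% and 48.5% of overlapped peaks and 21.6% and 27.7% of peaks apart. Being next to a site that both proteins occupy brings an own neighbour by itself, so part of this follows from the definition.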
